A study of Mus musculus with 65 samples.

Results

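The nuclear lamina and the LINC complex (linker of nucleoskeleton and cytoskeleton) were followed through 10 genes in single mouse outer hair cells (OHCs) of the cochlea. The 10 genes were taken by name: the lamins Lmna, Lmnb1 and Lmnb2, the lamin-binding membrane proteins Lbr and Emd, the SUN genes Sun1 and Sun2, and the nesprins Syne1, Syne2 and Syne4. All 10 have a row in the deposited table of 55292 genes. The 65 cells were picked by hand at postnatal day 10. Their titles and the design text call them OHCs, while the protocol text of the labels names IHCs (inner hair cells) and iOHCs as the picked cells. The 17 cells labelled Casz1 CKO came from mice with Atoh1-Cre, floxed Casz1 on both alleles, an Slc26a5 FlpO driver and a Rosa26 nuclear green fluorescent reporter that FlpO switches on. The 48 WT cells came from mice with the same FlpO driver and reporter only, so the groups differ in Cre as well as in the floxed gene. Atoh1 is active in developing hair cells, and the FlpO driver labels cells that express prestin, the OHC motor protein. The labels name no animal or litter, so each genotype stands here as 1 sample and no test was run. Intervals of CPM and of ratios cover counting error only. Intervals of shares of cells take the cells as independent draws, and no interval covers the spread between mice.

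The lamina is a mesh of lamin filaments under the inner nuclear membrane, to which emerin and the lamin B receptor are attached. SUN proteins cross that membrane and, in the space between both nuclear membranes, hold the KASH tails of nesprins, which reach out to actin, to microtubule motors or to intermediate filaments. Nesprin-4, the product of Syne4, binds kinesin-1. In mice that lack Syne4 or Sun1 the OHC nucleus leaves its basal position and OHCs are then lost, and SYNE4 mutations cause deafness in people.

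Libraries held 8239671 to 15320549 counts per CKO cell and 7458126 to 17107710 counts per WT cell, and no cells had identical columns. All 8 OHC markers were counted in both groups, and their summed level ran from 35938 to 94800 CPM (counts per 1000000 counts of the cell) in CKO cells and from 16714 to 66534 CPM in WT cells. Summed supporting cell markers had a median of 0.551 CPM in CKO cells (0 to 194) and 29.5 CPM in WT cells (0 to 474), with 5 of 9 markers at 5 CPM or more in either group, and Sox2 was at 0 in CKO cells. Summed inner hair cell markers had a median of 79.7 CPM in CKO cells (0.0653 to 314) and 156 CPM in WT cells (0 to 1041), with 3 of 6 markers at that level. What part such RNA has in the results was not tested. Casz1 stood at 46.2 CPM in CKO cells, where 15 of 17 had a count, and at 53.3 CPM in WT cells, where 42 of 48 had one. As the floxed exons are not named in the labels, these counts check nothing. Xist at 10 counts or more with Y-linked genes below 10 (the Xist pattern) was found in 15 of 17 CKO cells and 9 of 48 WT cells, so genotype and sex cannot be told apart over all cells. The WT cells also formed runs along their numbers, set after seeing the mitochondrial transcript mt-Co2, which had 94.8 to 283 CPM in CKO cells, against 33.5 to 83.6 CPM for WT cells 1 to 11. WT cells 12 to 45 had 229 to 644 CPM, and WT cells 46 to 48 had 100.1 to 111 CPM. The labels name no batch.

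Syne4 was the LINC gene that every OHC held. It stood at 611 CPM in CKO cells (95% Poisson interval 607 to 614) and 614 CPM in WT cells (612 to 616), pooled over the cells of each group. It was counted in 17 of 17 CKO cells and 48 of 48 WT cells, and took 71.6% of the counts of the 10 genes in CKO cells and 69.1% in WT cells. By pooled CPM, with no correction for length, it ranked 198 in CKO cells and 195 in WT cells among the genes with at least 5 CPM in either group. Syne4 lies on chromosome 7 (30314807 to 30319046, plus strand, GRCm38), with 2946 bases of exon that no other annotated gene shares.

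Upstream windows of Syne4, Sun1 and Lbr are shown because these belong to the members that most cells held, 1 nesprin, 1 SUN gene and 1 lamina receptor. They cover the 250 bases before a start of transcription annotated in RefSeq on GRCm38.p6, written 5′ to 3′ on the strand of the gene. The Lbr window lies within the Lbr gene as annotated in GENCODE M21, which runs from 181815335 to 181843046. Capitals mark the letters CANNTG (an E-box, the site type of factors such as Atoh1), GGGCGG (a GC box) and CCAAT, searched on both strands, so that a reverse match reads CCGCCC or ATTGG. None of the marked matches shown overlap each other.
Syne4, chr7:30314566-30314815, plus strand: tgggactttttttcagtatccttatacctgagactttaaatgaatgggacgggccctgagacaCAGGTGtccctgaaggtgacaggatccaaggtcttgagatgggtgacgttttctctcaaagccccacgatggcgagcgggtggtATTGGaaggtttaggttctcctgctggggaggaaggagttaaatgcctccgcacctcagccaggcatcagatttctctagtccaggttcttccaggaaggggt
Sun1, chr5:139200387-139200636, plus strand: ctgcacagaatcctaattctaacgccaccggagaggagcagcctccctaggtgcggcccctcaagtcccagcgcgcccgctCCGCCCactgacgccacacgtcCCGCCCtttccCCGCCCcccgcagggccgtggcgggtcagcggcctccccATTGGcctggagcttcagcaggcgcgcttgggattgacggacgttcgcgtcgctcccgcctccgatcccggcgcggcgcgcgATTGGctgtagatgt
Lbr, chr1:181842402-181842651, minus strand: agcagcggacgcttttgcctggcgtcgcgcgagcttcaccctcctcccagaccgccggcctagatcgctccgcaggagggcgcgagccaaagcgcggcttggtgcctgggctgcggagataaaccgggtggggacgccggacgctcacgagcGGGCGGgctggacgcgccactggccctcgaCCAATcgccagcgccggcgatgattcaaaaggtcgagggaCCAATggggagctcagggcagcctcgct

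The Syne4 window held 1 E-box, 1 CCAAT match and no GC box, with 6 CpG dinucleotides and 51.6% G and C. Over 32851 such windows the medians were 6 CpG and 52.4% G and C, and CANNTG was present in 66.2%, GGGCGG in 32.7% and CCAAT in 33.8%. The Sun1 window shown held 3 GC boxes, 2 CCAAT matches, 30 CpG and no E-box. The Lbr window held 1 GC box, 2 CCAAT matches, 31 CpG and no E-box. The window of a further annotated Sun1 start in the same source held 4 E-boxes, 1 CCAAT match, 1 TATAAA match, no GC box and 1 CpG, and TATAAA was present in 12.4% of all windows. A match of letters is a description and not a site that a factor was shown to bind.

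Single OHCs differed in Syne4 by less than an order of magnitude. The lowest, median and highest cell had 162, 558 and 1266 CPM among CKO cells, against 183, 583 and 1227 CPM among WT cells. The groups overlapped over nearly their whole range, and when each CKO cell was set against each WT cell, the CKO cell was the higher in 50.7% of 816 pairs, ties being split evenly here and below. The spread over cells was 625 ± 282 CPM in CKO cells (SD, n = 17 cells) and 602 ± 247 CPM in WT cells (SD, n = 48 cells). In the runs of WT cells 1 to 11, 12 to 45 and 46 to 48, pooled Syne4 was 642, 594 and 686 CPM, while Slc26a5, the prestin gene, was 1649, 576 and 1332 CPM.

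**Figure D1:**
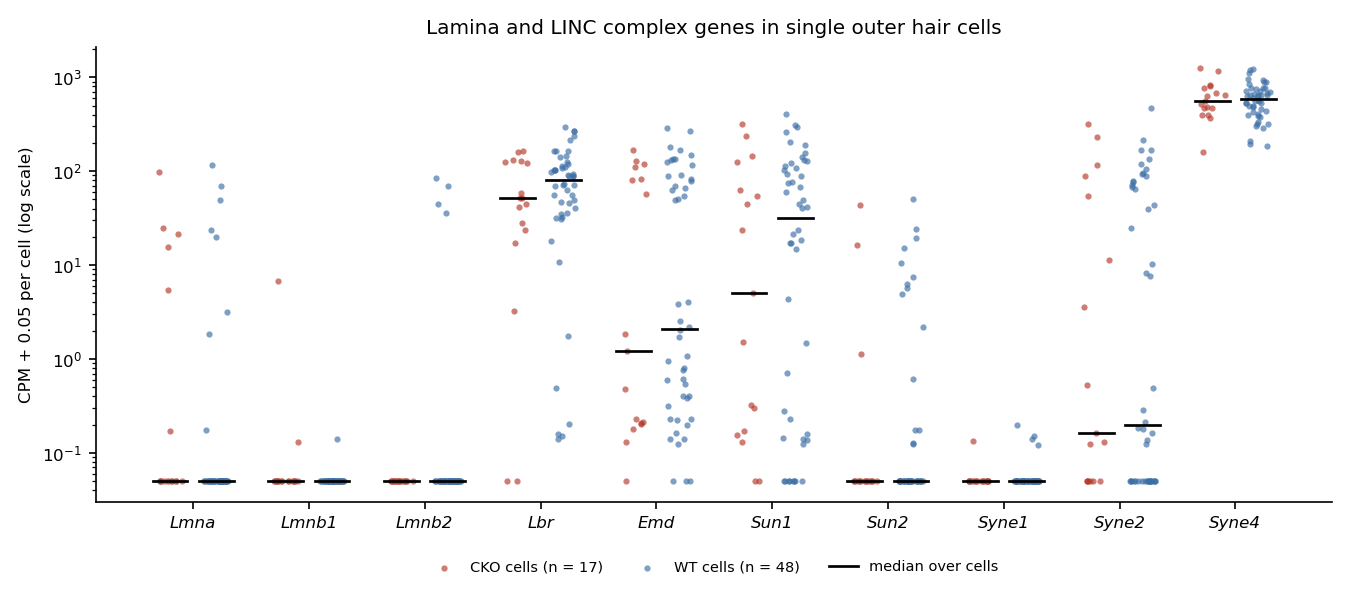
CPM per cell plus an offset of 0.05 (log axis) for the 10 genes in 17 CKO cells (red, left of each pair) and 48 WT cells (blue, right), with bars at the median over cells. Syne4 lies between 162 and 1266 CPM in every cell, while Emd, Sun1 and Syne2 split into high cells and cells near 0.

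The other nesprins were far lower per length. Syne2, which encodes the giant actin-binding nesprin-2, stood at 52.4 CPM in CKO cells and 41.5 CPM in WT cells, but its exons cover 26726 bases. Per kb of exon its pooled level was 1.96 CPM in CKO cells and 1.55 CPM in WT cells, against 207 and 208 CPM per kb for Syne4 in CKO and WT cells. Per kb, Syne4 exceeded Syne2 by 106-fold in CKO cells and 134-fold in WT cells, and was the higher of the pair in all 17 and all 48 cells. Exon bases of all annotated isoforms were summed here, so a level per kb is a lower estimate for a gene that uses short isoforms. The division also takes coverage as even along the exons, which was not checked. Without it, Syne4 stood at 611 CPM in CKO cells and 614 CPM in WT cells, a smaller gap to Syne2.

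Syne2 was counted in only part of the cells. At least 10 counts were found in 7 of 17 CKO cells (41.2%, exact interval 18.4% to 67.1%) and in 21 of 48 WT cells (43.8%, 29.5% to 58.8%). The lowest, median and highest cell had 0, 0.112 and 317 CPM among CKO cells, and 0, 0.150 and 476 CPM among WT cells. High and empty cells occurred in both groups. The highest CKO cell gave 46.4% of the CKO counts of Syne2, and the highest WT cell 16.7% of the WT counts.

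Syne1, the gene of nesprin-1, had almost no counts. It had 1 count over all CKO cells and 5 counts over all WT cells, and no cell reached 10 counts. With 0 of 17 and 0 of 48 cells, the exact upper limits of the shares are 19.5% of CKO cells and 7.40% of WT cells, and 3 cells of each total, the limit that a count of 0 allows, are 17.6% and 6.25%. Its annotated exons cover 40491 bases.

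Sun1 was the main SUN gene. It stood at 64.0 CPM in CKO cells and 72.0 CPM in WT cells, and Sun2 at 3.68 CPM in CKO cells and 2.89 CPM in WT cells. Per kb of exon, Sun1 exceeded Sun2 by 12.4-fold in CKO cells and by 17.8-fold in WT cells. Within single cells Sun1 was the higher per kb in 14 of 17 CKO cells and 37 of 48 WT cells, and Sun2 in 1 CKO cell and 8 WT cells.

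The level of Sun1 was uneven between cells. Its lowest, median and highest cell had 0, 5.05 and 320 CPM among CKO cells, and 0, 31.98 and 403 CPM among WT cells. At least 10 counts were found in 10 of 17 CKO cells (58.8%, 32.9% to 81.6%) and in 32 of 48 WT cells (66.7%, 51.6% to 79.6%). In the cells that reached 10 counts the median was 58.7 CPM in CKO cells and 82.6 CPM in WT cells, and the ranges overlapped. Sun2 reached 10 counts in 3 of 17 CKO cells and 10 of 48 WT cells.

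Syne4 and a SUN gene were often but not always counted in the same cell. At 10 counts or more, Syne4 and Sun1 or Sun2 occurred together in 11 of 17 CKO cells (64.7%, 38.3% to 85.8%) and in 37 of 48 WT cells (77.1%, 62.7% to 88.0%). The other 6 CKO cells and 11 WT cells held Syne4 without 10 counts of either SUN gene. At 1 count or more, the cells without a SUN gene were 2 CKO cells and 3 WT cells. An absence of counts in a cell at this depth does not show that the gene is silent there.

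Of the lamina genes, Lbr reached 10 counts in the most cells of both groups. Lbr encodes the lamin B receptor, which binds B-type lamins and heterochromatin and is also a sterol reductase. It stood at 68.3 CPM in CKO cells (67.2 to 69.5) and 92.2 CPM in WT cells (91.4 to 93.0). The lowest, median and highest cell had 0, 51.5 and 163 CPM among CKO cells, and 0.0892, 80.3 and 294 CPM among WT cells, so the CKO cells lay within the WT range apart from 2 cells at 0. At least 10 counts were found in 15 of 17 CKO cells and 43 of 48 WT cells. Exons of Lbr share 10.7% of their bases with other genes, among them Dnah14 on the opposite strand, and the strand setting is not given in the sources used here.

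Emd, the X-linked gene of emerin, which binds lamin A and the chromatin factor BAF, was all or little in single cells. It stood at 41.7 CPM in CKO cells and 55.1 CPM in WT cells. In 7 of 17 CKO cells it had 57.4 CPM or more and in the other 10 at most 1.81 CPM. In 20 of 48 WT cells it had 49.4 CPM or more and in the other 28 at most 4.02 CPM. The high cells had medians of 110 CPM in CKO cells and 103 CPM in WT cells, and no cell of either group lay between these levels. Such unevenness was not particular to Emd, whose median and upper quartile over WT cells were 2.04 and 83.6 CPM. For partner genes named below they were 0.0343 and 80.7 CPM for Fnta and 0.108 and 70.4 CPM for Tmpo. Kif5b, in contrast, had at least 10 counts in every cell. The cause was not tested. Of the exon bases of Emd, 13.6% are shared with Gm14686 on the same strand.

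The lamin genes themselves were sparse. Lmna, which encodes lamins A and C, stood at 11.1 CPM in CKO cells and 6.17 CPM in WT cells, and reached 10 counts in 5 of 17 CKO cells (29.4%, 10.3% to 56.0%) and 7 of 48 WT cells (14.6%, 6.07% to 27.8%). The lowest, median and highest cell had 0, 0 and 97.3 CPM among CKO cells, and 0, 0 and 117 CPM among WT cells. CKO cell 1 alone gave 63.9% of the CKO counts of Lmna, and WT cell 7 gave 38.7% of the WT counts. The groups overlapped, with most cells of both at 0.

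The B-type lamins were rarer still. Lmnb2 had no count in the CKO cells (0 of 17, an exact upper limit of 19.5%) and had 460 to 936 counts in each of 4 WT cells (8.33% of 48, 2.32% to 20.0%) and none in the others. Lmnb1 had 98 counts in CKO cell 1, 1 count in CKO cell 7 and 1 count in WT cell 7. At least 10 counts of any lamin gene were found in 5 of 17 CKO cells (29.4%, 10.3% to 56.0%) and 10 of 48 WT cells (20.8%, 10.5% to 34.99%). Lbr without 10 counts of a lamin gene was found in 10 of 17 CKO cells and 34 of 48 WT cells. In cells with a lamin gene, summed supporting cell markers ran from 0 to 183 CPM in the 5 CKO cells and from 0.211 to 228 CPM in the 10 WT cells. CKO cell 1 had 183 CPM of supporting cell markers and no macrophage marker count. WT cell 7 had 114 CPM of macrophage and 69.7 CPM of mesenchymal markers, where the medians over WT cells were 0 and 0.118 CPM, and WT cell 14, with Lmnb2, had 459 CPM of glia and 165 CPM of mesenchymal markers. The part of such RNA in the lamin counts was not tested.

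**Figure D2:**
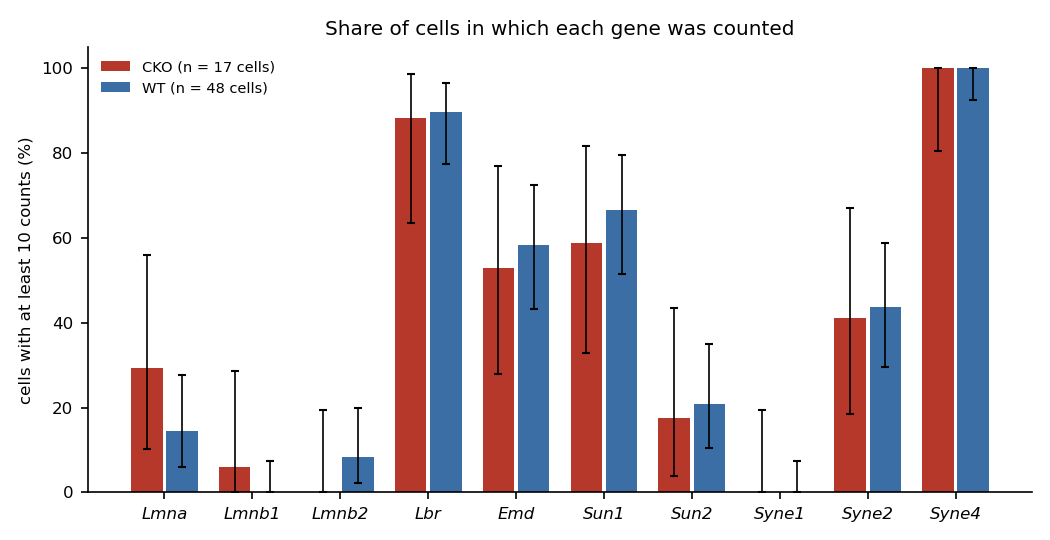
Share of cells with at least 10 counts of each gene, in CKO cells (red, left) and WT cells (blue, right), with exact 95% binomial intervals. The intervals take cells as independent draws and do not compare the genotypes. Syne4 alone reaches 100% in both groups.

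Set in order per kb of exon, the pooled levels in CKO cells ran Syne4 (207 CPM per kb), Emd (16.6), Lbr (14.4), Sun1 (8.43), Syne2 (1.96), Lmna (1.90), Sun2 (0.679), Lmnb1 (0.167) and Syne1, with Lmnb2 at 0. In WT cells they ran Syne4 (208 CPM per kb), Emd (21.9), Lbr (19.4), Sun1 (9.48), Syne2 (1.55), Lmnb2 (1.11), Lmna (1.06) and Sun2 (0.533), with Syne1 and Lmnb1 near 0. Syne4 stood above Emd in every cell of both groups. Emd and Lbr, next to each other, were not separated by cells: Emd was the higher per kb in 8 of 17 CKO cells and 22 of 48 WT cells. Lbr exceeded Sun1 in 11 of 17 CKO cells and 36 of 48 WT cells. Lmna and Lmnb2 were both at 0 in 11 CKO cells and 37 WT cells.

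**Figure D3:**
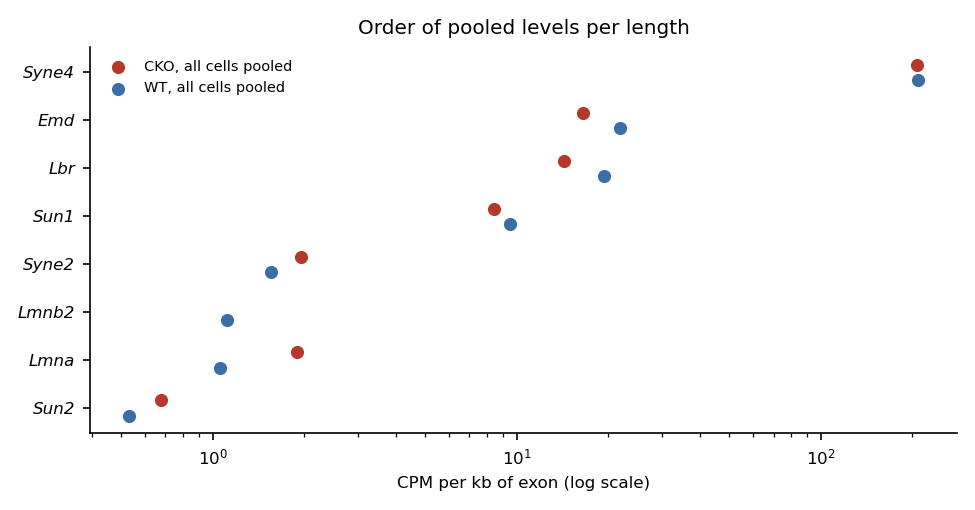
Pooled CPM per kb of exon (log axis) in CKO cells (red, upper point) and WT cells (blue, lower point) for the 8 genes above 0.1 CPM per kb in WT cells. Syne4 stands at 207 in CKO cells and 208 in WT cells, at least 9.52-fold above Emd, and Lmnb2 has no CKO point because it is at 0.

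The comparison of genotypes asks whether these genes differ between OHCs labelled Casz1 CKO and WT. None of the members differed by 2-fold or more over all cells among the 6 that reached 5 CPM in the higher group (Lmna, Lbr, Emd, Sun1, Syne2 and Syne4). Of 10842 genes tested in the same way, 29.5% differed by at least 2-fold, 15.1% higher and 14.5% lower in CKO cells. A count of 0 among 6 is too small a base to set the members apart from that share. Of the 6, 2 were higher and 4 lower in CKO cells, where 50.4% of all genes tested were higher and 49.6% lower. Their median log2 ratio was -0.09, against a median of 0.01 and quartiles of -0.53 and 0.57 over all genes tested. No member had 1 group higher in at least 75% of cell pairs, a level that 1.53% of genes reached. The 4 members under 5 CPM were Lmnb1, Lmnb2, Sun2 and Syne1, for which values are given above.

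The smallest ratio was that of Syne4, at -0.01 on the log2 scale (conditional exact interval -0.02 to 0.00). Lbr had a log2 ratio of -0.43 (-0.46 to -0.40), with the WT cell the higher in 58.3% of pairs. Emd had -0.40 (-0.44 to -0.37), with the WT cell the higher in 54.6% of pairs. In both genes most of the range was shared by the groups.

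Sun1 had a log2 ratio of -0.17 (-0.20 to -0.14) and Syne2 one of 0.34 (0.30 to 0.37). A CKO cell was the higher in 47.1% of pairs for Sun1 and in 50.2% for Syne2. Without CKO cell 14 the ratio of Syne2 was -0.45, and without CKO cell 11 that of Sun1 was -0.64. Lmna had the largest ratio of the 6, at 0.85 (0.77 to 0.92). It was -0.51 without CKO cell 1 and 1.52 without WT cell 7, so single cells set its direction and its size.

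Among Xist-pattern cells, 15 CKO and 9 WT, several ratios differed from those over all cells. Emd stood at 43.4 CPM in CKO cells and 117 CPM in WT cells, a log2 ratio of -1.43, and was the only member at 5 CPM or more that was at least 2-fold apart there. Lmna stood at 12.6 CPM in CKO cells and 19.2 CPM in WT cells (-0.61), and Sun1 at 72.6 CPM in CKO cells and 53.0 CPM in WT cells (0.45). Syne2 stood at 27.6 CPM in CKO cells and 35.2 CPM in WT cells (-0.35), the other direction from all cells. Lbr (0.03) and Syne4 (-0.29) stayed within 2-fold. Of the 9 Xist-pattern WT cells, 8 are numbered 1 to 11, so these values do not separate sex from the runs.

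The runs of WT cells gave different ratios for Emd, Lmna, Sun1 and Syne2. Emd had 41.7 CPM in CKO cells, against 98.8, 39.7 and 18.9 CPM in the runs 1 to 11, 12 to 45 and 46 to 48, log2 ratios of -1.24, 0.07 and 1.14. Lmna had 11.1 CPM in CKO cells, against 15.2, 2.74 and 0.991 CPM in the same runs, log2 ratios of -0.46, 2.02 and 3.48. Against the same runs the log2 ratios were 0.47, -0.43 and 0.51 for Sun1, and 0.91, 0.25 and -0.49 for Syne2. The last run holds 3 cells. Lbr was lower in CKO cells than in each run (-0.31, -0.49 and -0.33), and Syne4 stayed between -0.17 and 0.04. Against these runs, neither the size nor the direction of the Emd, Lmna, Sun1 and Syne2 ratios held.

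**Figure D4:**
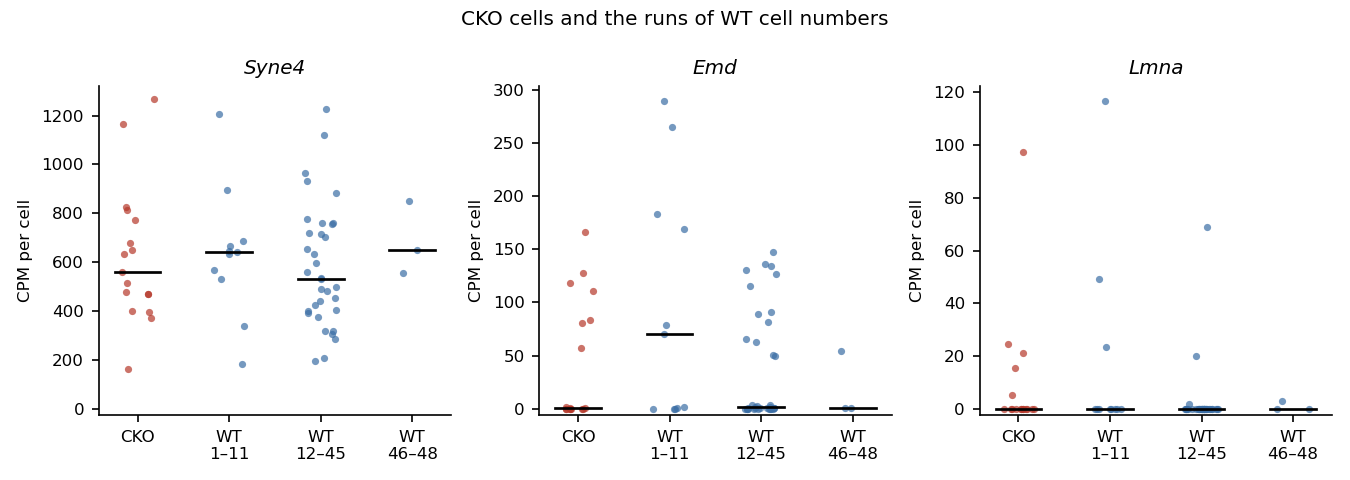
CPM per cell of Syne4, Emd and Lmna in 17 CKO cells (red, left) and in WT cells 1 to 11, 12 to 45 and 46 to 48 (blue), with bars at the median over cells. Syne4 spans 162 to 1266 CPM in CKO cells, while the 3 WT cells 46 to 48 lie inside that span, between 555 and 851 CPM, and the highest Emd value is 289 CPM among WT cells 1 to 11, against 166 CPM among CKO cells.

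**Figure D5:**
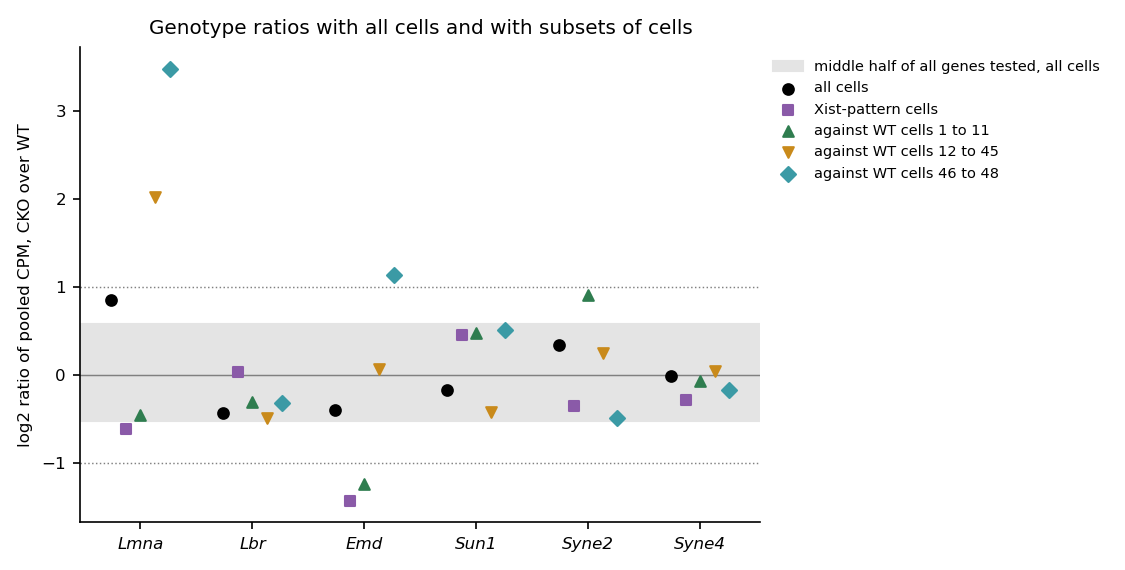
Log2 ratio of pooled CPM, CKO over WT, for the 6 members at 5 CPM or more, with all cells (black circles), Xist-pattern cells (squares) and each run of WT cells (triangles and diamonds). The band spans the quartiles of all genes tested (-0.53 to 0.57), dotted lines mark 2-fold, and Lmna and Emd are the genes whose points lie beyond 2-fold.

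Of 11 partners at the inner nuclear membrane, 10 reached 5 CPM. At least 2-fold, 1 was higher and 3 were lower in CKO cells, and the median log2 ratio was -0.62. Of all 10842 genes tested, 15.1% were higher and 14.5% lower by that much. A list of 10 genes is too small to set apart from those shares. Tmpo, the gene of the LAP2 proteins that bind lamins, stood at 16.2 CPM in CKO cells and 45.7 CPM in WT cells (-1.50), and the ratio was -2.56 without CKO cell 9, which gave 55.2% of the CKO counts. Lemd3, the gene of the inner membrane protein MAN1, stood at 7.37 CPM in CKO cells and 17.8 CPM in WT cells (-1.27), with ratios of -1.97 without CKO cell 13 and -0.95, under 2-fold, without WT cell 22. Tmem201, the gene of the inner membrane protein SAMP1, stood at 7.90 CPM in CKO cells and 28.6 CPM in WT cells (-1.86), but at -0.47 among Xist-pattern cells it was within 2-fold. Tmem43, the gene of LUMA, which binds emerin, stood at 10.2 CPM from 3 CKO cells and 0.119 CPM in WT cells. For these 4 genes the WT cell was higher in 43.8% to 60.3% of pairs, ties split evenly, so cells of the groups overlapped. Exons of Tmpo overlap a gene on the opposite strand.

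All 5 listed genes of enzymes that mature the lamins were measured. Over all cells each was within 2-fold, where 29.5% of all genes tested were not. Rce1, the protease that trims farnesylated proteins, stood at 49.0 CPM in CKO cells and 27.7 CPM in WT cells (0.82). Zmpste24, which cuts prelamin A, stood at 25.9 CPM in CKO cells and 16.02 CPM in WT cells (0.70). Both subunits of farnesyltransferase were lower in CKO cells: Fnta at 27.3 CPM in CKO cells and 47.02 CPM in WT cells (-0.78), and Fntb at 15.4 CPM in CKO cells and 22.3 CPM in WT cells (-0.54). Single cells and subsets moved these ratios. That of Rce1 was 0.19 without CKO cell 6, 1.05 without WT cell 40 and 1.01 among Xist-pattern cells. That of Zmpste24 was 0.32 without CKO cell 2, 1.59 against WT cells 1 to 11 and -1.19 against WT cells 46 to 48. That of Fnta was -1.22 without CKO cell 12, -1.30 in cells with at least 10000000 counts and 0.43 among Xist-pattern cells, and that of Fntb was -1.08 without CKO cell 5. Each of the 4 genes was thus past 2-fold in at least 1 setting. The list as a whole had 2 higher and 3 lower members and a median of -0.35.

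Of 8 other LINC and torsin genes 2 reached 5 CPM, both torsins, ATPases of the nuclear envelope. Tor1a stood at 60.5 CPM in CKO cells and 45.99 CPM in WT cells (0.40), and Tor1b at 8.31 CPM in CKO cells and 21.2 CPM in WT cells (-1.35). CKO cell 12 gave 74.1% of the CKO counts of Tor1b, and the ratio was -3.24 without it and -0.90 by the mean of per-cell CPM, which is under 2-fold. Sun3 and Spag4, SUN genes known from the testis, had no count in either group, and Syne3, the gene of nesprin-3, which binds plectin, had no count in CKO cells and 2 counts in WT cells. Irag2, also under 5 CPM, had 432 counts in CKO cells, 99.8% of them in 1 cell, and none in WT cells. Kash5 had 71 counts, all in 1 CKO cell, against 2 counts in WT cells. Sun5 had 1 count in CKO cells and none in WT cells.

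Of 12 genes of the motors and filaments that nesprins bind, 10 reached 5 CPM, all but Klc2 and Fhod1. By at least 2-fold, 1 was higher and 1 lower, where 29.5% of all genes tested differed that much in either direction. The median log2 ratio of the 10 was -0.04. Kif5a, a neuronal kinesin-1 heavy chain, stood at 7.15 CPM in CKO cells and 2.60 CPM in WT cells (1.46), with 83.8% of the CKO counts in CKO cell 15, without which the ratio was -1.09. Klc3, a kinesin light chain, stood at 17.8 CPM in CKO cells and 37.9 CPM in WT cells (-1.09), and was within 2-fold without CKO cell 14 (-0.98). Klc1, another light chain, stood at 63.9 CPM in CKO cells and 36.6 CPM in WT cells (0.80), and Bicd2, a dynein adaptor, at 21.1 CPM in CKO cells and 38.6 CPM in WT cells (-0.87). Without CKO cell 9 the ratio of Bicd2 was -1.69, and without WT cell 4 that of Klc1 was 1.00.

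Kif5b, the broadly used kinesin-1 heavy chain, was named after its values were seen. It stood at 471 CPM in CKO cells and 513 CPM in WT cells (-0.12) and had at least 10 counts in all 17 CKO and all 48 WT cells, as Syne4 did. Exons of Klc3, Klc1 and Kif5b overlap genes on the opposite strand. Over the 4 partner lists, 2 genes were higher and 5 lower by at least 2-fold in CKO cells, of 27 measured and of 36 in all, near the background of 29.5%.

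The search for genes with a like pattern covered Lbr, Emd, Sun1 and Syne4, and the other 6 members were not searched. Among 3106 genes with at least 20 CPM in pooled WT cells and a count in at least 80% of them, the highest Spearman correlations of CPM over the 48 WT cells were 0.54 for Emd, 0.53 for Lbr, 0.51 for Syne4 and 0.47 for Sun1. None reached the 0.6 set for naming a gene, though within WT cells 12 to 45 the same gene gave 0.62 for Lbr. Among the members, Sun1 and Syne4 had a correlation of 0.00 over WT cells and -0.35 over the 17 CKO cells, and Lbr and Syne4 had 0.27 over WT cells and -0.04 over CKO cells. These values are descriptions over cells whose libraries differ in depth, with medians of 14216070 counts in WT cells 1 to 11 and 10756710 counts in 12 to 45, and in sparse counts such weak values are no finding.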

How the data were processed

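The authors deposited 1 table of whole-number read counts per gene for 65 cells, in which each column matched 1 sample title. Smart-Seq HT chemistry, named in the labels' protocols, adds no molecular identifiers, so reads are not independent molecules. Intervals of CPM and of ratios cover counting error only. Per the submitters' processing notes, HISAT2 2.2.1, StringTie 2.2.1 and featureCounts 2.0.1 were used on mm10. Which of them gave the counts, the annotation, the strand setting and any filter are not stated there.

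CPM per genotype is the summed count of all its cells over their summed total. Log2 ratios carry exact conditional intervals at 95%. Where a genotype had no count of a gene, 3 counts per genotype took its place. Called means at least 2-fold, among genes that reach 5 CPM in either group. Exon lengths, positions and overlaps come from GENCODE M21 (GRCm38). Named were the 10 members, up to 4 measured genes of each partner list with the largest absolute ratio, and genes with a Spearman correlation of at least 0.6. Upstream windows came from RefSeq (GRCm38.p6), for 9 of 10 members. Computation used Python 3.11.15 and R 4.3.3. The computation of ratios was checked on simulated pooled Poisson counts. These hold no spread between cells, so the check does not bear on how well the intervals suit these data. Alternatives included edgeR 4.0.16 TMM, DESeq2 1.42.0 size factors, subsets of cells and thinning of each cell to 7458126 counts. The members, the lists and the rules were chosen with earlier results of these data known.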

Additional observations from a re-analysis of the deposited data

How the results depend on the processing

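No paired analysis was possible because the titles number cells and pair none, and nothing was tested. The median log2 ratio of the members was -0.067 by the mean of per-cell CPM, -0.64 by their median (3 members measured), -0.12 with edgeR TMM and -0.12 with DESeq2 size factors, -0.20 with a total free of mitochondrially encoded and ribosomal protein genes (7 measured), -0.47 without each gene's highest cell in each group (5 measured), -0.32 in Xist-pattern cells, -0.19 against WT cells 1 to 11, 0.039 against 12 to 45, -0.17 against 46 to 48 and -0.19 after thinning (7 measured in each of these last 3, and 6 in the others); leaving out each cell in turn gave -0.28 to -0.017. The count of members at least 2-fold higher, 0 over all cells, was 1 (Lmna) against WT cells 12 to 45, 2 (Lmna and Emd) against 46 to 48, 1 (Lmnb1) with no filter on low values, and 0 to 1 when leaving out each cell, with Lmna called without WT cell 1, 7 or 26. The count at least 2-fold lower, also 0, was 1 each for Sun1 by the median of per-cell CPM, Emd against WT cells 1 to 11 and among cells of the Xist pattern, Sun2 against WT cells 46 to 48, and Lmnb2 with the reduced total, against WT cells 12 to 45, after thinning and with a filter of 1 CPM or none. For the partner lists, whose alternatives were chosen after seeing the data, the count higher, 2 over all cells, was 1 without each gene's highest cell, 5 in Xist-pattern cells, 4 against WT cells 1 to 11, 7 against 46 to 48, 4 with no filter and 1 to 4 when leaving out each cell. The count lower, 5 over all cells, was 3 by the mean, 2 by the median, 8 without each gene's highest cell, 3 against WT cells 46 to 48 and 3 after thinning. Against WT cells 46 to 48 the log2 ratio was 3.27 for Tmpo, 6.65 for Tor1b and 7.75 for Klc3, the reverse of all cells, and Kif5a was at -0.38 without its highest cells and between -1.09 (without CKO cell 15) and 2.17 when leaving out each cell. The causes were not tested. Of 83 values of the 6 measured members under alternatives, 18 had another sign and 7 were at least 2-fold. With no animal named, the spread between mice is not known, and for Lmna, Lmnb1, Lmnb2 and Sun2, counted in few cells, single cells set the pooled level.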
